A study of Mus musculus with 12 samples.

Results

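Eomes-positive NK cells were selected from the livers of neonatal mice by their own transcripts. Single-cell RNA-seq was performed on dissociated liver from 12 C57BL6/J pups of postnatal day 11, with 1 library per mouse and no pooled animals. In the anemia group, 6 pups had 20 µL of blood per g of body weight removed from the facial vein on postnatal days 2, 4, 6, 8 and 10, which was meant to bring the hematocrit down to 20 to 24%. The 6 control pups received only a needle stick. No genetic change was made in either group, and the labels give 1 date for all libraries. A cell was counted as a member if it had at least 1 unique molecular identifier (UMI, the tag of 1 captured mRNA molecule) of Ncr1 or Klrb1c, at least 1 of Nkg7 and at least 1 of Eomes. It also had no UMI of Cxcr6, Cd200r1 or Il7r, no UMI of Themis, Cd4, Cd8a or Cd8b1, none of Cd79a, Lyz2, C1qa or Stab2, and at most 1 UMI of Top2a and Mki67 together. Kept cells, the only ones considered, had 500 to 50000 UMIs of which no more than 20% were mitochondrial. By this rule 176 of 202557 kept cells were members, 77 in control and 99 in anemic livers.

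Natural killer (NK) cells are innate lymphocytes that kill infected or stressed cells with perforin and granzymes and secrete interferon gamma. They share the liver with type 1 innate lymphoid cells (ILC1), which are resident in the tissue and carry some of the same receptors. The transcription factor Eomes is the classical dividing line between them: conventional NK cells express it together with its relative T-bet (encoded by Tbx21), whereas ILC1 depend on T-bet and lack Eomes. In young mice many NK cells are still immature and acquire their Ly49 receptors and granule proteins during the first weeks.

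Of 11063 kept cells with a UMI of Ncr1 or Klrb1c, 9486 also had Nkg7, and 605 of those had Eomes. The absence of ILC1 genes left 507 cells and the limit on the proliferation genes Top2a and Mki67 left 214, the largest loss after the Eomes condition. This limit took control cells from 180 to 91 and anemic cells from 327 to 123, and those of anemia 2 from 147 to 39. The remaining conditions left 202 and then 176. Members are therefore cells with little RNA of proliferation genes in which Eomes RNA was captured. Eomes was sparse: 142 members had exactly 1 Eomes UMI, 28 had 2 and 6 had 3 or more. Just outside the limit, 3161 cells met every other condition with 0 Eomes UMIs. Their median depth per mouse was 1781 to 3220 UMIs, and that of the members with 1 Eomes UMI 1618 to 3770. These ranges overlapped, but within a mouse such members were deeper except in control 2, anemia 4 and anemia 6. In anemia 3 their median was 2950.5 UMIs against 2264, and in anemia 6 it was 1618 against 2142. The NK and ILC family, defined as the cells that pass all conditions except those on Eomes and on the ILC1 genes, held 5620 cells. An Eomes UMI was present in 2.90% of the 3136 control family cells (95% Clopper-Pearson interval 2.34 to 3.55%) and in 4.55% of the 2484 anemic family cells (3.76 to 5.44%). Cells of 1 mouse are not replicates, and by mouse the share was 1.94 to 3.50% in control and 1.28 to 12.0% in anemic livers, where anemia 2 (12.0%) and anemia 3 (5.74%) stood highest, anemia 5 (3.75%) and anemia 6 (3.54%) lay just above the highest control, anemia 4 lay within the control range and anemia 1 below it. In B cells, which lack Eomes, the share was 0.0309% in control and 0.0434% in anemic livers, and in macrophages, which were deeper, 0.0295% and 0.0638%. T cells, chosen by at least 1 UMI of Cd3d, Cd3e or Cd3g and at least 1 of Themis, Cd4, Cd8a or Cd8b1 with none of Ncr1 or Klrb1c, stood at 2.46% and 3.60%, so an Eomes UMI alone does not mark NK cells. The median family cell of a mouse had 1855 to 3320 UMIs, the median B cell 1567 to 2206 and the median macrophage 5346 to 9778. These intervals cover counting error only.

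Libraries held 46252146 to 74545930 UMIs, and members summed to 15688 to 48720 UMIs per control mouse and 9928 to 127576 per anemic mouse. Anemia 2 and anemia 3 contributed 33 and 34 of the 99 anemic members, whereas anemia 1 gave 5. The median member had 1959 to 2254 UMIs in the control mice and 1618 to 3760 in the anemic mice, with anemia 2 the highest. Of all barcodes in a library, 4.53 to 5.44% were also listed in another library. Among the members 4 barcodes were, and none was a member in both libraries. Doublets were not called. Cells with RNA of B, myeloid or endothelial markers were outside the rule, but 3 members of anemia 3 carried large amounts of foreign RNA. In 1 of them 204 of the 207 S100a9 UMIs of that mouse were found, and 2 others held 639 and 220 of its 943 Hbb-bs UMIs. Results that rest on these barcodes are given with and without them.

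The frequency of the members was compared first. Members made up 0.0498 to 0.118% of the kept cells in control livers (median 0.0736%) and 0.0310 to 0.187% in anemic livers (median 0.0581%). Anemia 2 and anemia 3 lay above every control mouse, and anemia 1 and anemia 6 below every one. The groups did not differ by the exact two-sided Mann-Whitney test (p = 0.818, n = 6 and 6; BH-adjusted over 2 share tests p = 0.818). The smallest p that 6 against 6 mice can give is 0.00216. The means were 0.0802% ± 0.0279 (SD) and 0.0891% ± 0.0673. Within the NK and ILC family, members made up 1.75 to 3.17% in control mice (median 2.37%) and 1.07 to 10.4% in anemic mice (median 2.77%; exact p = 0.485, adjusted p = 0.818). Anemia 2 again stood highest at 10.4% (95% Clopper-Pearson interval 7.30 to 14.4%), followed by anemia 3 at 5.27% (3.68 to 7.29%). After every cell was thinned to 1500 UMIs, leaving out shallower cells, the exact p values were 0.937 for kept cells and 0.180 for the family. The thinning left out 4474 to 8156 kept cells per library, among them 9 control and 3 anemic members. The rule was applied again to the thinned counts, so the members were not the same cells. There were 4 to 9 per control mouse, against 8 to 21 before, and 4 to 23 per anemic mouse, against 5 to 34. As an alternative, cells with a UMI of Cd3d, Cd3e, Cd3g or Trac were left out. This left 54 to 171 family cells per mouse, of 254 to 686, so most family cells carried such a UMI. Members were then on average 7.29% of the family in controls and 10.0% in anemia (SD 4.90 in anemia, n = 6, exact p = 0.132). Without anemia 2 and anemia 3 both differences of the means turned sign, to -0.0337 percentage points of kept cells (exact p = 0.114) and -0.22 of the family (exact p = 0.914).

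**Figure D1:**
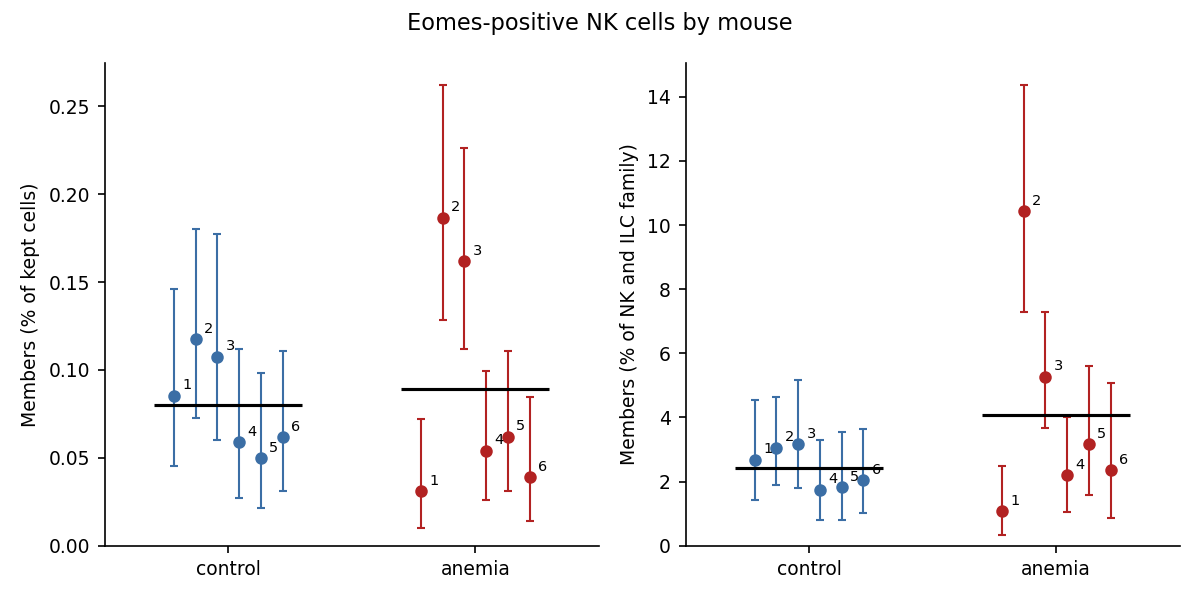
Members as a percentage of kept cells (left) and of the NK and ILC family (right) in each mouse, numbered by replicate; bars are 95% Clopper-Pearson intervals of counting error and black lines are group means. Anemia 2 and anemia 3 lie above every control mouse in both panels, and the other 4 anemic mice lie among or below the controls in the left panel.

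The label was then checked on genes that the rule did not use, as a description with no test, since members were chosen from these same cells. Over all mice the members held 3482 CPM of Gzma (the UMIs of a gene divided by all UMIs of the summed members and scaled to CPM) and 8677 CPM of Ccl5, which encode granzyme A and a chemokine of cytotoxic lymphocytes. A UMI of Gzma was present in 157 of 176 members, of Ccl5 in 163, of Fcer1g (the Fc receptor gamma chain used for signaling) in 157, of Klrd1 (CD94) in 141 and of Il2rb (a chain of the IL-2 and IL-15 receptors) in 131. In pooled UMIs members did not have the higher levels of these genes compared with ILC1-like cells (family cells with 0 Eomes UMIs and at least 1 UMI of Cxcr6, Cd200r1 or Il7r, 2255 in all), which had higher pooled levels of each: 4373 CPM of Gzma, 21423 of Ccl5, 1813 of Fcer1g against 1263 in members, 816 of Klrd1 against 737, and 702 of Il2rb against 614. For Il2rb the order turned in the mean over mice, 732 ± 316 CPM in members and 710 ± 48.7 in ILC1-like cells (SD, n = 12). Tbx21 was at 201 CPM in members and 364 in ILC1-like cells. It was seen in 71 members, Itga2 (CD49b, an integrin typical of NK cells) in 36 and Itga1 (CD49a, typical of ILC1) in 24. Prf1, which encodes perforin, stood at 275 pooled CPM in members against 71.1 in ILC1-like cells and 8.78 in T cells. Pooling weights Prf1 towards anemia 2 and anemia 3, which gave 49 and 51 of its 138 UMIs, and the mean over mice was 177 ± 149 CPM (SD, n = 12; 0 to 469) in members and 71.2 ± 29.7 in ILC1-like cells. Klra4, a Ly49 receptor gene, showed the widest gap of the named receptors, with 171 CPM against 0.684 and 1.80. Zeb2, a factor of late NK maturation, was at 106 CPM against 37.3 and 54.0. In the other direction members had 707 CPM of Gzmb and 63.7 of Itga1, whereas ILC1-like cells had 2055 and 282. Tnfsf10 (TRAIL), typical of neonatal NK cells and ILC1, was at 5.98 CPM in members and 59.3 in ILC1-like cells. Genes of the T cell receptor complex were not absent. Among members 74 had a UMI of Cd3d, Cd3e, Cd3g or Trac, and 21 had 3 or more. Cd3g reached 217 CPM in members, 987 in ILC1-like cells and 513 in T cells, and Cd3e 37.8, 401 and 1032. In the family cells with neither Eomes nor an ILC1 gene Cd3g was at 891 CPM and Cd3e at 339. T cells were chosen by such UMIs, so their levels follow from the rule and are no reference, and the name of the ILC1-like class rests on the 3 ILC1 genes alone. Cells with no UMI of Cd3d, Cd3e, Cd3g or Trac were examined separately as an alternative. That alternative did not exclude the T cell receptor genes Trbc2 and Trdc, which had a UMI in 60 and 18 of the 176 members.

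**Figure D2:**
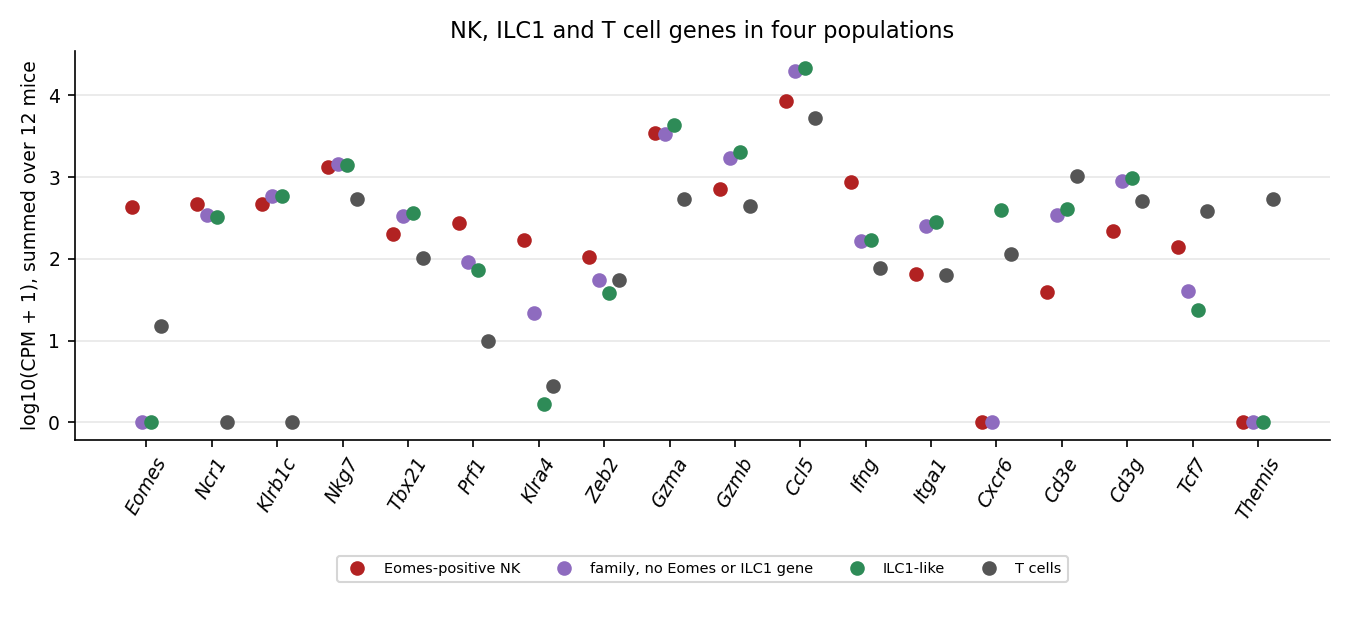
Level of 18 genes as log10(CPM + 1), with UMIs summed over 12 mice, in members, in family cells with neither Eomes nor an ILC1 gene, in ILC1-like cells and in T cells. Eomes, Ncr1, Klrb1c, Nkg7, Cxcr6 and Themis, and for T cells Cd3e and Cd3g, were used to choose cells, so their levels there follow from the rules; Prf1, Klra4 and Zeb2 are highest in members, and Gzmb, Ccl5, Itga1 and Cd3g are higher in ILC1-like cells than in members.

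Granule genes were detected in some members and not in others. Gzma and Gzmb were found together in 72 of 176 members, and Gzmb and Prf1 together in 37. Itgam (CD11b, acquired late) was seen in 14 members and Cd27 (held by earlier stages) in 42, with 2 cells positive for both. Because a member carried only 2456 UMIs at the median, a cell without a UMI of such genes cannot be called negative.

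Gene expression was compared between 6 anemic and 6 control mice on UMIs summed per mouse over members, with the quasi-likelihood test of edgeR and BH adjustment over the 1522 genes that averaged 5 or more UMIs in a mouse. A gene is called changed at an adjusted p under 0.05. There were 12 called genes (0.788% of those tested), 7 higher (0.46%) and 5 lower (0.329%) in anemia. The split depended on the tool, since limma voom called 13, 1 higher and 12 lower, with 6 of the 12 among them and neither Aldoa nor Gm10076, and DESeq2 called 1 higher (Hbb-bs) and 2 lower (Serpina1a and Rbp4). With edgeR 109 genes (7.16%) had an unadjusted p under 0.05. The median log2 fold change of all tested genes was 0.03. None of the 12 was an NK receptor, cytokine or transcription factor gene. Calls depended on single mice. When 1 mouse was left out, 1 gene (without control 1) to 24 genes (without anemia 4) were called, and 5 other omissions also moved the count by over 1.5 times, to 4, 3, 6 and 7 without control 2, 3, 5 and 6 and to 3 without anemia 3. Hbb-bs was called in each of the 12 such fits, Serpina1a in 10, Rbp4 in 9, Gm10076 and S100a9 in 8, Fabp1 and Hba-a1 in 7, Ttr and Hba-a2 in 6, S100a8 in 5, and Aldoa and Ahsg in 4. Aldoa, which encodes the glycolytic enzyme aldolase A, and Gm10076 rose, together with hemoglobin and neutrophil transcripts, and 5 plasma protein and lipid transport genes of hepatocytes fell. In simulated counts made from the same sums, the test recovered 84 of 93 genes with an absolute log2 fold change of 2. It recovered 42 of 107 with 1, so smaller changes could easily be missed. The simulation gave all genes the same dispersion, so recovery in the real counts may be lower.

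The tested genes of the hypoxia and glycolysis list had differences of 1 sign, of which 1 passed the test. They are 9 genes of glycolytic enzymes, which break down glucose, and Mif, which encodes a cytokine (macrophage migration inhibitory factor) and had a log2 fold change of 1.29. Many such genes are known targets of the hypoxia-inducible factors. Of the 30 genes in the hypoxia and glycolysis list 10 passed the filter on low counts. All 10 had a positive log2 fold change, 0.62 to 1.47 with a median of 1.21. Of all tested genes 53.2% were above 0. The 10 genes each had an unadjusted p under 0.05 in the higher direction, which 3.81% of all tested genes had. Tpi1, Pgk1 and Pgam1 (1.47, 1.35 and 1.25) did not pass the filter when anemia 2 and anemia 3 were both left out. The count of 10 and the median thus rest partly on genes admitted through those mice, where the summed level of the 10 genes was highest. The shares of all tested genes are therefore no independent reference for the list. Only Aldoa (chr7:126795234-126800751, minus strand, GRCm38; ENSMUSG00000030695) passed the adjustment. Aldoa was at 255, 446 and 530 CPM (lowest, median, highest) in control mice and at 355, 809 and 2069 CPM in anemic mice. All anemic mice but anemia 4 exceeded the highest control. The log2 fold change was 1.37 ± 0.33 (SE; edgeR adjusted p = 0.0328). The call was lost without any 1 of the control mice, anemia 2 or anemia 3, and the smallest log2 fold change was 0.95 without anemia 2. Tpi1 (triosephosphate isomerase) had the largest difference of the tested genes of the list at 1.47 ± 0.49 and did not pass (adjusted p = 0.233). Ldha, which encodes the lactate dehydrogenase subunit A that regenerates NAD, was at 197, 407 and 706 CPM in control and 201, 721 and 1411 CPM in anemic mice, a log2 fold change of 1.02 ± 0.32 (adjusted p = 0.188). Pgk1 (phosphoglycerate kinase) showed 1.35 ± 0.46 (adjusted p = 0.264), Pkm (pyruvate kinase) 1.16 ± 0.41, Eno1 (enolase) 1.00 ± 0.33 and Gapdh 0.62 ± 0.29, none called. Without anemia 4 Eno1 (1.13, adjusted p = 0.0483) and Pkm (1.34, adjusted p = 0.0408) were called.

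The size of this shift differed between mice. The summed level of the 10 genes was 2677 to 4619 CPM in control mice, and 5818, 13278, 7818, 3234, 4937 and 3122 CPM in anemia 1 to 6. Without anemia 2 alone the median log2 fold change was 0.573 with 2 of 8 tested genes at an unadjusted p under 0.05, and without anemia 3 alone 1.19 with 8 of 10. The highest values were those of anemia 2 and anemia 3, which also held most members, and anemia 4 and anemia 6 fell inside the control range. Without both anemia 2 and anemia 3 only 7 of the 10 genes could be tested. Their median log2 fold change was then 0.49, 6 were above 0, and none had an unadjusted p under 0.05. Aldoa was then at 0.52, not called. Other lymphocytes of the same livers had differences of the same sign. In ILC1-like cells the same 10 genes had a median log2 fold change of 0.89 and in T cells of 0.56, all 10 above 0 in both. These populations come from the same 12 mice and the values are given side by side only. In the test of the difference itself, none of the 10 was called, against ILC1-like cells (differences -0.30 to 0.41) or against T cells (0.11 to 0.77). In the whole NK and ILC family, with 9873 genes tested, 18 of 28 listed genes had an unadjusted p under 0.05 in the higher direction (5.37% of all tested genes had) and the median was 0.69. In the family 9 genes (0.0912%) were called, among them P4ha1, a collagen prolyl hydroxylase gene of the list, with a log2 fold change of 1.00 (adjusted p = 0.038).

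**Figure D3:**
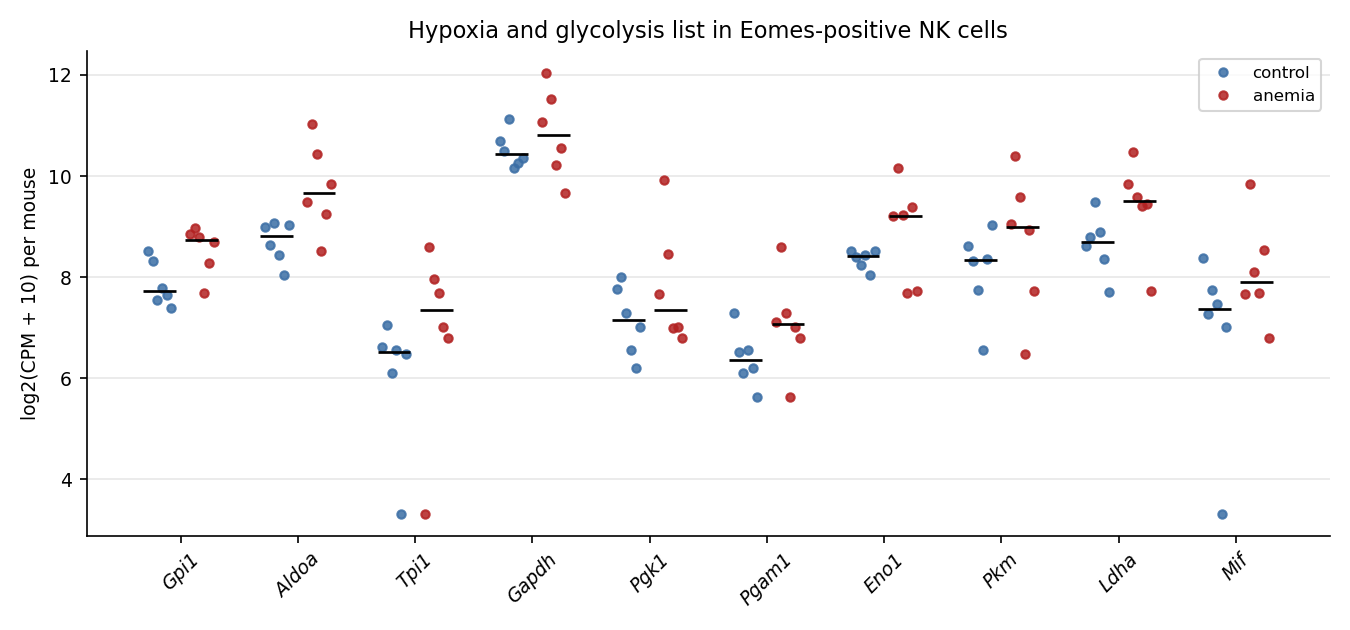
Level of the 10 tested genes of the hypoxia and glycolysis list (9 glycolytic enzymes and the cytokine gene Mif) in members of each mouse as log2(CPM + 10), 6 control and 6 anemic mice; black lines are medians. The anemic median lies above the control median for each of the 10 genes, the points of the groups overlap, and the highest of the 12 points is anemia 2 for each gene.

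The promoters of 4 of these genes are shown because hypoxia-inducible factors bind the core letters ACGTG or GCGTG. The sequences are from RefSeq on GRCm38.p6, 250 bases before to 50 after a listed start, 5′ to 3′ on the strand of the gene, with capitals marking ACGTG or GCGTG on either strand. All 10 tested genes matched a listed promoter. Aldoa has 3 listed starts, of which the second is printed (chr7:126799205-126799504, minus strand). Ldha has 2, of which the first is printed (chr7:46845554-46845853, plus strand), and Pgk1 (chrX:106186850-106187149, plus strand) and Tpi1 (chr6:124814109-124814408, minus strand) have 1 each.
Aldoa: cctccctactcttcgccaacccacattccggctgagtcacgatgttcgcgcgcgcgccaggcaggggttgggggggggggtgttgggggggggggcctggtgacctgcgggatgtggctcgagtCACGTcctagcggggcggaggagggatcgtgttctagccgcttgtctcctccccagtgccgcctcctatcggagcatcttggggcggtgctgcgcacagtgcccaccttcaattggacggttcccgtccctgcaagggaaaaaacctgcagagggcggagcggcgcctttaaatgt
Ldha: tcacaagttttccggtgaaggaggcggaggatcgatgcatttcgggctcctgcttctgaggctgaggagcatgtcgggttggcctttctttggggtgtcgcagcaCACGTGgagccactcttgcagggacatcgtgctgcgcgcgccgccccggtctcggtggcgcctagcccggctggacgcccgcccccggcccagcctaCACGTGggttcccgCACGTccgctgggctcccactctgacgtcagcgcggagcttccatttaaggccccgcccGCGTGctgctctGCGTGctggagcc
Pgk1: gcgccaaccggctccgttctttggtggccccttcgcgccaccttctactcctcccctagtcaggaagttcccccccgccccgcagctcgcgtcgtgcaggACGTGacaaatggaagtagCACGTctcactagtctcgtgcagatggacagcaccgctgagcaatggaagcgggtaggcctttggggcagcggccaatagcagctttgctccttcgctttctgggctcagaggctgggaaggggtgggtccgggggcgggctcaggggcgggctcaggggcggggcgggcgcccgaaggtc
Tpi1: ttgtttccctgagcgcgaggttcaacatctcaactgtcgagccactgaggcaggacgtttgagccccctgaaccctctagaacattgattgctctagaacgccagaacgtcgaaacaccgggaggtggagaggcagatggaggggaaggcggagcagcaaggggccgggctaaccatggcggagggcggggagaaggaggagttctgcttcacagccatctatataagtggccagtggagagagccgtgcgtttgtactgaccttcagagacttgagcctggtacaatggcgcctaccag

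Ldha held such letters in 5 separate places, Pgk1 in 2 and the second start of Aldoa in 1, whereas the Tpi1 window and the first listed Aldoa window held none. CACGTG reads as ACGTG on both strands and was taken as 1 place. Among the first listed promoters of the 10 genes 6 held ACGTG or GCGTG, compared with 43.8% of 27025 promoters of the same length, so these letters are common. ACGTG alone was in 5 of the 10 and in 19.7% of all promoters. A match describes the letters and does not show binding.

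Effector genes had higher levels in some anemic mice but none was called. Of 23 effector genes 12 were tested, 7 were above 0, and the median log2 fold change was 0.21. Gzmb (granzyme B; chr14:56258838-56262260, minus strand) was at 127, 312 and 706 CPM in control and 201, 672 and 1152 CPM in anemic mice. Only anemia 2 and anemia 5 exceeded the highest control, and 5 of 6 anemic mice were above the control median. The log2 fold change was 1.19 ± 0.34 (edgeR adjusted p = 0.127), and without anemia 6 it was called (1.27, adjusted p = 0.0484). Prf1 was at 42.1, 143 and 255 CPM in control and 0, 185 and 469 CPM in anemic mice (1.00 ± 0.47, adjusted p = 0.659). Gzma differed by 0.39 ± 0.28 (adjusted p = 0.86) and Ccl5 by -0.03 ± 0.26 (adjusted p = 0.998). For Ccl5 the 95% interval of the log2 fold change ran from -0.54 to 0.47.

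Ifng, which encodes interferon gamma (chr10:118441046-118445892, plus strand), had the largest difference of the effector genes without being called. It was at 29.4, 52.9 and 452 CPM in control and 39.4, 214 and 2790 CPM in anemic mice, a log2 fold change of 2.40 ± 0.66 (adjusted p = 0.094). Ifng passed the test in 5 alternatives, with no filter on low counts, with the replicate block, and without anemia 3 (2.61, adjusted p = 0.0422), anemia 4 (2.58, adjusted p = 0.0137) or anemia 5 (2.56, adjusted p = 0.0304), whereas without anemia 2 it was at 0.66 (adjusted p = 0.992). Anemia 1 and anemia 2 exceeded every control, and the groups overlapped. Few cells carried it. A UMI of Ifng was found in 48 of 176 members, and in anemia 2 there were 2 cells with 232 and 83 of its 356 UMIs. When these 2 cells and the 3 with foreign RNA were left out, the log2 fold change of Ifng was 0.83 and that of Gzmb 1.11. The share of members with an Ifng UMI, after thinning to 1500 UMIs, was 0 to 26.3% in control mice (median 5%) and 0 to 43.8% in anemic mice (median 20.9%). Unthinned it was 6.67 to 30.8% and 10 to 45.5%.

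**Figure D4:**
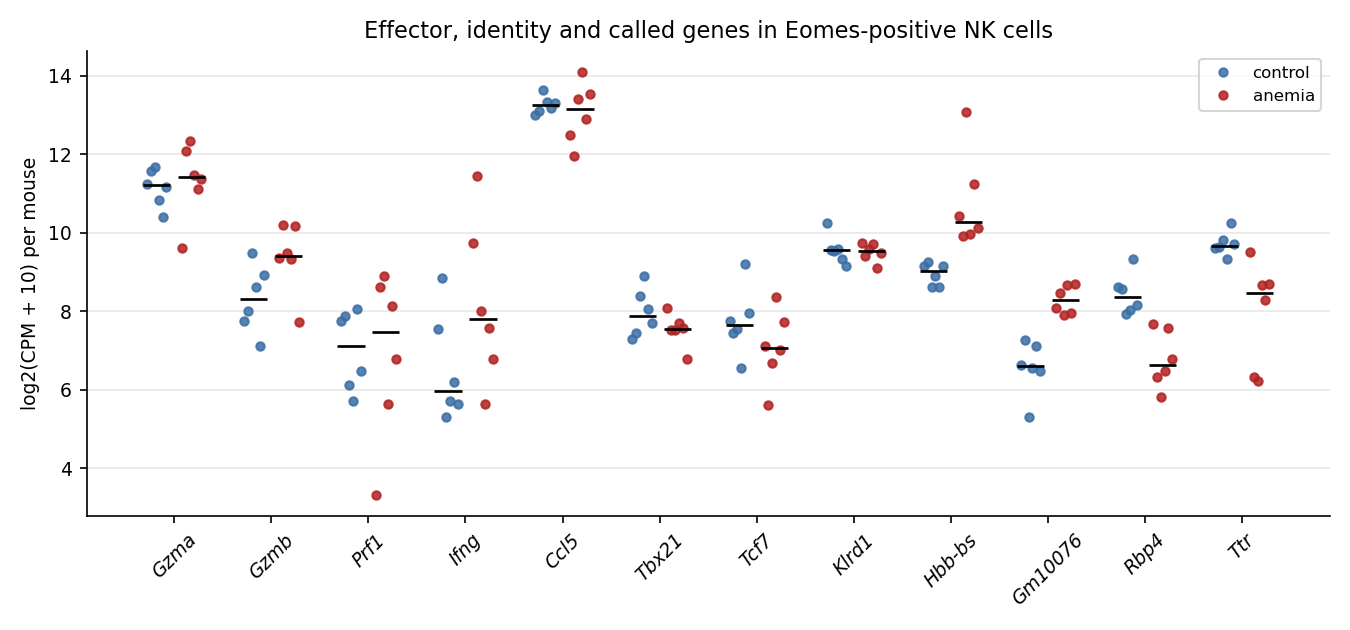
Level of effector, identity and called genes in members of each mouse as log2(CPM + 10); black lines are medians. The groups separate for Hbb-bs, Gm10076 and Rbp4, whereas Gzma, Ccl5, Tbx21, Tcf7 and Klrd1 overlap broadly and single anemic mice carry the high Ifng and Gzmb values.

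Genes of NK identity did not pass the test. Among 24 transcription factor genes 15 were tested, 7 above 0, with a median of -0.04. Tbx21 was at 148, 226 and 463 CPM in control and 101, 177 and 259 CPM in anemic mice (-0.41 ± 0.35, adjusted p = 0.893). Tcf7, encoding TCF-1 of early stages, differed by -0.88 ± 0.48 (adjusted p = 0.747). Of 23 lectin-like receptor genes 10 were tested, with 6 above 0 and a median of 0.20. These included Klrd1 (-0.10 ± 0.24, adjusted p = 0.991), Klrc1 (NKG2A; 0.53 ± 0.35, adjusted p = 0.817) and Klra4 (0.84 ± 0.51, adjusted p = 0.812). Klra4 and the other Ly49 genes are similar in sequence, so reads may be split among them. Il2rb differed by 0.22 ± 0.29 (adjusted p = 0.955). The late maturation list had 4 of 15 genes tested, all above 0, with a median of 0.85. These 4 include Gzmb and Prf1, given above as effector genes, so the list is not a separate result. Anemia 2 and anemia 3 held 49 and 51 of the 138 Prf1 UMIs, without which it would not pass the filter. The early list had 7 of 12 tested, 1 above 0, with a median of -0.49. None of either list was called. Several maturation genes were too low to test: over all members Klrg1 had 2 UMIs in control and 21 in anemic mice, S1pr5 (the exit receptor) 0 and 3, Itgam 8 and 13, Cd27 25 and 32, Zeb2 27 and 26, Klra8 6 and 6, Itga2 15 and 31, Cd69 15 and 39, and Ly6c2 11 and 4. Anemia 3 alone gave 16 of the 21 anemic Klrg1 UMIs and 10 of the 13 of Itgam. The anemic members held 320605 UMIs in all against 181386 in control.

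Further lists gave no calls. Cytokine receptors and signaling had 12 of 26 genes tested with a median of -0.03, migration and residence 13 of 21 with 0.35, other receptors and adaptors 9 of 22 with 0.08, ILC1 genes outside the rule 3 of 17 with -0.63, interferon response 5 of 38 with -0.21, glucocorticoid response 2 of 15 with 0.46, immediate early and heat shock genes 16 of 28 with -0.05, survival and BCL2 family 3 of 14 with 0.17, and cell cycle 7 of 27 with 0.33, a list that the rule limited through Top2a and Mki67. Eomes itself, which defines the members, was at 463 to 701 CPM in control and 298 to 806 CPM in anemic members and is given as a description.

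Gm10076 was the only called gene outside the lists. It is annotated as a long noncoding RNA (chr14:105681828-105682211, plus strand, GRCm38; ENSMUSG00000060143), and its transcript matched that of Rpl41, a ribosomal protein gene, at 381 of 383 aligned bases, so reads of the pair may be confused. Gm10076 was at 29.4, 86.3 and 144 CPM in control and 230, 302 and 403 CPM in anemic mice. All 6 anemic mice exceeded all controls, which 0.131% of tested genes did. The log2 fold change was 1.70 ± 0.37 (adjusted p = 0.0163). It was also called in ILC1-like cells (1.21, adjusted p = 0.014), in T cells (0.95, adjusted p = 0.018) and in the family (1.12, adjusted p = 0.010). Rpl41 itself, which was not tested, was at 2230 to 2744 CPM in control and 1511 to 3685 CPM in anemic members.

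RNA of other cell types moved with the groups. Hbb-bs, a beta globin gene of erythroid cells, was at 382, 508 and 595 CPM in control and 956, 1233 and 8663 CPM in anemic members, without overlap (log2 fold change 2.48 ± 0.43, adjusted p = 0.0032). In the kept cells that were not members its mean was 12828 CPM in control and 55349 CPM in anemic livers. Without the 3 barcodes and the 2 rich in Ifng the log2 fold change in members was 1.32, still called. Of 18 erythroid genes 5 were tested, with 3 called higher and a median of 2.40. Without the 3 barcodes Hba-a1 was at 1.03 (adjusted p = 0.502) and Hba-a2 at 0.84 (adjusted p = 0.721), compared with 2.40 for each with them. The list summed to 1030 to 1859 CPM in control and 1914 to 16591 CPM in anemic members, again without overlap. Its defining genes Klf1, Slc4a1 and Rhag were at 0 UMIs in all members. In the whole NK and ILC family Hbb-bs was at 1.35 and not called (adjusted p = 0.243), nor was it in ILC1-like cells (1.70, adjusted p = 0.369) or T cells (1.73, adjusted p = 0.193). Of 25 hepatocyte genes 12 were tested, all below 0, 5 called lower, with a median of -1.71. The list summed to 5259 to 12047 CPM in control and 753 to 5245 CPM in anemic members, so the groups did not overlap. In the kept cells that were not members it summed to 18450 CPM in control and 15716 CPM in anemic livers. Rbp4 (retinol transport) was at 235, 323 and 637 CPM in control and 45.9, 89.8 and 194 CPM in anemic members (-1.89 ± 0.39, adjusted p = 0.0163), every anemic mouse below every control, which 0.197% of tested genes were. Serpina1a (alpha-1 antitrypsin) fell by 2.41 ± 0.51 and Fabp1 (fatty acid binding) fell by 2.32 ± 0.50, both with an adjusted p of 0.0163, and Ttr and Ahsg were called too. For Serpina1a 20 of the 26 UMIs of control 1 lay in 1 cell, and the call was lost without control 1 or anemia 3. Its groups overlapped, with 2 of 25322 member UMIs in control 6 and 6 of 25358 in anemia 4. Without anemia 2 and anemia 3 none of these genes was called, at -1.07 for Fabp1, -0.89 for Ttr, -0.73 for Ahsg, -1.19 for Rbp4 and -1.61 for Serpina1a. In the whole family they were not called either, at -0.49 for Fabp1, -0.54 for Serpina1a and -0.60 for Rbp4. Members of anemia 2 and anemia 3 had the lowest median share of hepatocyte and erythroid RNA, 0.284% and 0.249% of UMIs, compared with 0.545 to 0.906% in control mice. Among members at or under their own mouse's median share of this RNA, 778 genes were tested and 1, Alb of hepatocytes, was called (lower). The limit was thus lower in anemia 2 and anemia 3 than in control mice, and this setting does not level such RNA between the groups. There 8 genes of the hypoxia and glycolysis list were tested, all above 0 with a median log2 fold change of 0.88, 3 had an unadjusted p under 0.05, and Aldoa was at 1.08 (adjusted p = 0.349).

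S100a8 and S100a9, the neutrophil calprotectin genes, were called at 5.67 and 5.88, but 12 of 217 S100a9 UMIs lay outside the 2 richest cells, and the neutrophil list summed to 0 to 126 CPM in control and 0 to 3730 CPM in anemic members, with Elane, Camp, Prtn3 and Cebpe at 0. Without the 3 barcodes both fell under the filter on low counts and were not tested. There 8 genes were called: Hbb-bs, Aldoa and Gm10076 higher, and Fabp1, Serpina1a, Ahsg, Ttr and Rbp4 lower. Without anemia 2 and anemia 3 only Hbb-bs was called, among 911 genes tested. Lists of macrophage and B cell RNA had 1 gene tested each, at 0.35 and 1.01, T cell RNA had 5 tested with a median of -0.28, and those of endothelial and stellate RNA had none. They summed to 168 to 471, 59.8 to 441, 403 to 2677, 39.2 to 472 and 0 to 191 CPM over all mice.

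**Figure D5:**
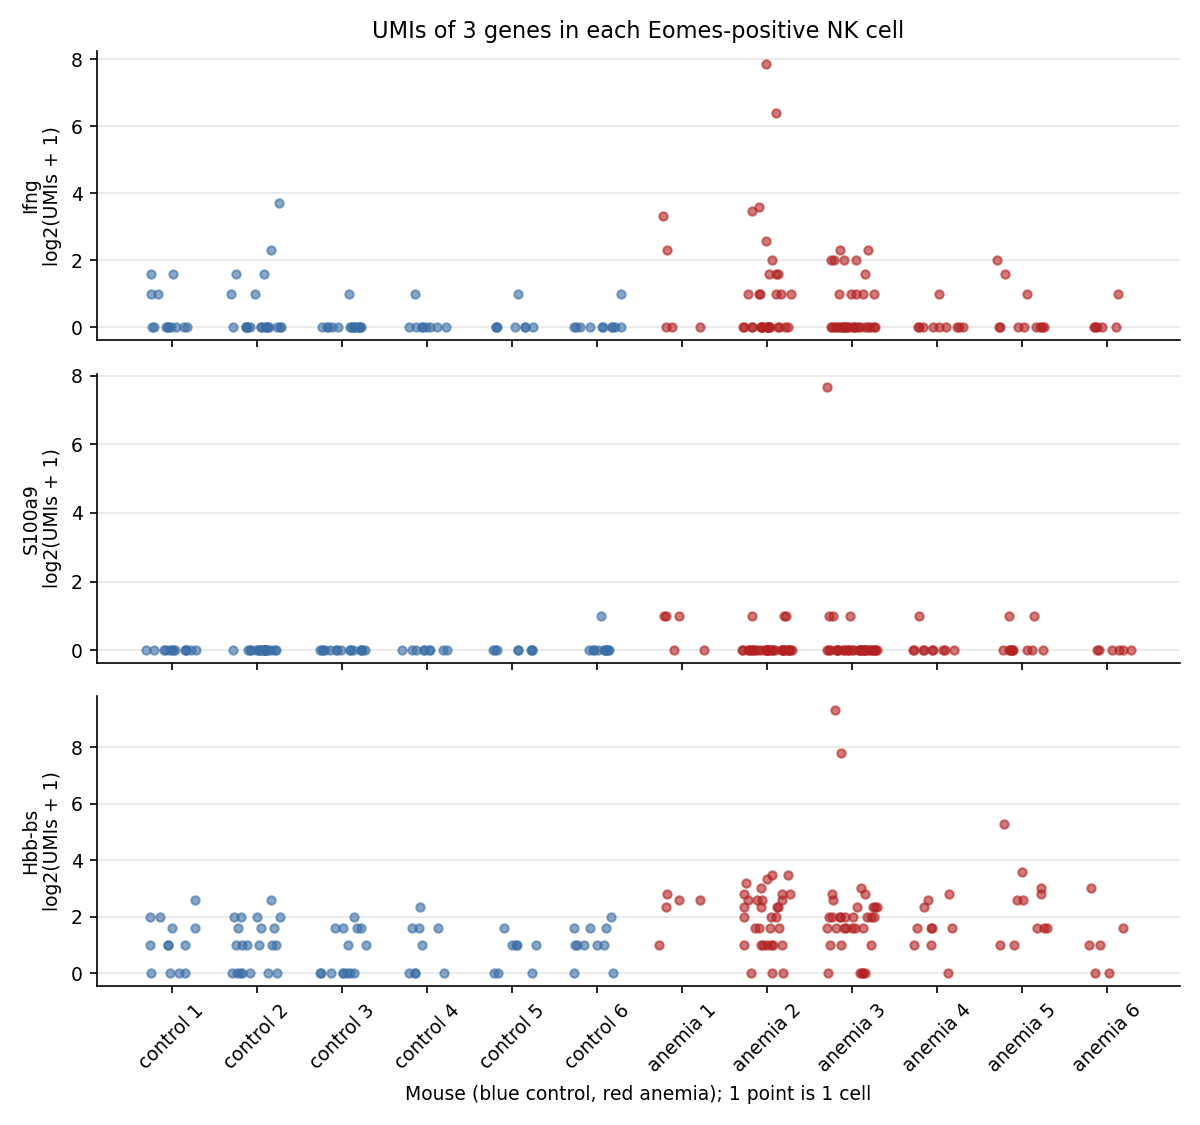
UMIs of Ifng, S100a9 and Hbb-bs in each member as log2(UMIs + 1), by mouse; 1 point is 1 cell. Single cells of anemia 2 (Ifng) and anemia 3 (S100a9, Hbb-bs) stand far above the rest, and for Hbb-bs the median cell of a mouse has 0 to 1 UMIs in control and 1 to 5 in anemic mice, with most points of the groups overlapping.

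Whether the response to anemia in members differed from that in other lymphocytes was tested by the interaction of cell type and group, with the mouse as a block. Against ILC1-like cells 7 of 6205 genes (0.113%) were called: S100a8, S100a9, Stfa1, Cstdc5 and Ifng (0.0806%) with a higher and Apoa2 and Serpina1a (0.0322%) with a lower change in members. Without control 1 or without anemia 3 only 1 gene was called. Apoa2 was called in 3 of the 12 fits with 1 mouse left out and in 1 of 8 other alternatives, and Serpina1a in 8 of 12 and 2 of 8. The difference for Ifng was 1.87 ± 0.38 on the log2 scale (adjusted p = 9.2e-04). Ifng lost its call without control 3 (1.54, adjusted p = 0.109) or anemia 2 (1.19, adjusted p = 0.836). Ifng stood at 187 and 177 CPM in control and anemic ILC1-like cells. Without the 3 barcodes only Ifng was called, and when the 2 cells rich in Ifng were also left out, or without anemia 2 and anemia 3, no gene was (277 and 281 genes had an unadjusted p under 0.05). Against T cells 8 of 7441 genes (0.108%) were called: S100a9, Stfa1, S100a8, Ifng, Klra7 and Gzmb higher (0.0806%), and Ifit3 and Ass1 lower (0.0269%). The count was 5, 3, 4 and 5 without control 1, control 2, anemia 3 and anemia 4. The Ifng difference from T cells was 2.25 and was not called without anemia 2 (1.20, adjusted p = 0.988). Gzmb had a difference of 1.60 ± 0.32 (adjusted p = 0.0013), being at 479 and 392 CPM in control and anemic T cells while it was at 356 ± 211 (SD, n = 6) and 744 ± 358 CPM in members. It remained called without the 5 barcodes (1.55, adjusted p = 0.0043) and without anemia 2 and anemia 3 (1.71, adjusted p = 0.0121), and lost the call without control 2 (1.43, adjusted p = 0.0697) or without anemia 5 (1.25, adjusted p = 0.124). Outside anemia 2 and anemia 3 most Gzmb UMIs of an anemic mouse lay in 1 cell, with 10 of 10 in anemia 1, 11 of 16 in anemia 4, 30 of 38 in anemia 5 and 2 of 2 in anemia 6. Klra7, a Ly49 gene, had a difference of 2.10 ± 0.45 (adjusted p = 0.0063). It stood at 59.0, 135 and 382 CPM in control and 64.6, 207 and 276 CPM in anemic members, so the groups overlapped, whereas its T cell mean was 130 and 53.1 CPM. Klra7 lost its call without control 1, anemia 2 or anemia 4, at differences of 1.89, 1.57 and 1.82. Ifit3, an interferon-induced gene, was seen in a single control mouse (295 CPM), and its difference of -4.73 turned to 2.43 without that mouse. Against ILC1-like cells the Gzmb difference was 0.99 ± 0.31 (adjusted p = 0.40). Gzmb was the single gene called, higher, among 1565 tested when cells with a UMI of Cd3d, Cd3e, Cd3g or Trac were left out. Simulations with the same dispersion for all genes recovered a difference of 2 in 60 of 193 genes against ILC1-like cells and in 50 of 195 against T cells.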

How the data were processed

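Droplet single-cell RNA-seq (10X Genomics) was performed by the authors on dissociated liver of 6 control and 6 anemic pups. The deposited values are raw UMI counts per gene and barcode, made by the authors with Cell Ranger 7.0.0 per the file headers and not normalized; the labels name mm10. No barcode had fewer than 500 UMIs. UMIs of members were summed per mouse with numpy 2.4.6 and pandas 2.3.3. Shares were compared with the exact Mann-Whitney test of scipy 1.17.1. Genes averaging 5 or more UMIs, mitochondrial and ribosomal protein genes excluded, were tested with edgeR 4.0.16 (quasi-likelihood, TMM) in R 4.3.3; standard errors follow from the log2 fold change and its F statistic. CPM values carry no TMM factors. With 9928 to 127576 UMIs per mouse, 1 UMI is 101 to 7.84 CPM. The test was checked on simulated counts. Alternatives were DESeq2 1.42.0, limma 3.58.1 (voom), other filters and gates, thinning, a replicate block, Y-linked expression as a covariate and single mice left out. Those on the whole family, on anemia 2 and anemia 3 and on 5 outlying barcodes were chosen after seeing the data. Members and the 23 gene lists were chosen with earlier results of these data known. The rule named up to 10 called genes per direction whose groups did not overlap, at 10 CPM or more and outside the RNA lists, up to 3 called genes per direction of the RNA lists and of each interaction, called genes of the other lists (up to 3 or 4), and 20 NK genes in any case. All other genes given with values, such as the glycolysis genes besides Aldoa, were named after their values were seen. Gene coordinates follow GENCODE M21 (GRCm38).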

Additional observations from a re-analysis of the deposited data

Results flagged for a closer look

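Some values stood apart from the other 5 mice of their group, by the gap to the nearest mouse relative to the range. They came from anemia 3 in 5 cases, anemia 2 in 1 and control mice in 7. The limit flags about 1 in 20 groups for normally distributed values only. With counts near 0 a single UMI among zeros is always flagged, so the flags cannot be set against that rate. In members of anemia 3 the globin share was 1.58% of UMIs against 0.464% in the next anemic mouse, and Hbb-bs was at 8663 CPM against 2394. In the same mouse S100a8 reached 1700 CPM against 29.9, S100a9 1902 against 194 and Stfa1, another neutrophil transcript, 1112 against 29.9, nearly all from 1 cell. Ifng reached 2790 CPM in anemia 2 against 840 in the next anemic mouse, and 452 in control 2 against 177 in the next control. Klrd1 was at 1210 CPM in control 1 against 757, Tcf7 at 574 in control 5 against 237 and Rbp4 at 637 in control 5 against 384. S100a8 and Stfa1 were each at 20.5 CPM in control 2, where other controls had 0, and S100a9 at 39.5 CPM in control 6; each of these is a single UMI.

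Differences of the response between populations were flagged where the interaction was called. Against ILC1-like cells the differences were 5.45 (S100a8), 5.54 (S100a9), 5.55 (Stfa1), 5.09 (Cstdc5), 1.87 (Ifng), -1.53 (Apoa2) and -1.80 (Serpina1a) on the log2 scale. Against T cells they were 4.40 (S100a8), 4.81 (S100a9), 4.62 (Stfa1), 2.25 (Ifng), 2.10 (Klra7), 1.60 (Gzmb), -3.51 (Ass1) and -4.73 (Ifit3). Ass1, a urea cycle gene of hepatocytes, had 18 UMIs in control and 3 in anemic members. The S100a8, S100a9, Stfa1 and Cstdc5 differences were not called without the 3 barcodes of anemia 3, and Ifng was not called in either comparison when its 2 richest cells were left out too. Gzmb was called in 10 of 12 fits with 1 mouse left out and in all 8 of the other alternatives against T cells.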

How the results depend on the processing

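The share of members among kept cells differed by 0.00887 percentage points between groups, with -0.0106 to 0.0205 when 1 mouse was left out and -0.0337 without anemia 2 and anemia 3. For the family share the difference was 1.67, with 0.394 to 2.27 and -0.22. The other alternatives kept the sign, and none gave an exact p under 0.05, but the size moved. For the share of kept cells it was 0.0330 after thinning, 0.0293 among cells with a Ptprc UMI, 0.0245 among those low in globin and 0.0203 with the stricter gate. For the family share it was 2.74 without cells that had a UMI of Cd3d, Cd3e, Cd3g or Trac. The main fit called 12 genes. With at least 2 UMIs of Ncr1 and Klrb1c 5 were called, 4 of them among the 12. Members at or under their mouse's median of hepatocyte and erythroid RNA gave 1, Alb, which was not among the 12. Some settings called only genes among the 12. These were 1 without cells that had a Cd3d, Cd3e, Cd3g or Trac UMI, 5 after thinning and 3 with DESeq2. Others called further genes. With limma voom 13 were called, 6 of them among the 12. With the expression of Y-linked genes as a covariate 14 were called, all 12 among them. A mean of 20 UMIs (214 tested) gave 1, as did the fit without anemia 2 and anemia 3. Leaving out 1 mouse gave 1 to 24. Without a filter on low counts 18 of 12515 genes were called, 10 of them among the 12. The 7 genes that differed from ILC1-like cells gave way to 1 other gene (Gzmb) without cells that had a Cd3d, Cd3e, Cd3g or Trac UMI. They became 1 without the 3 barcodes and 0 without also the 2 rich in Ifng (277 at an unadjusted p under 0.05). None was called without anemia 2 and anemia 3 (281) or at a mean of 20 UMIs (93). All were edgeR fits, no other tool was run, and leaving out 1 mouse gave 1 to 8. Against T cells, where the main fit called 8, the same settings in order called 1, 5, 2, 2 and 4, and leaving out 1 mouse gave 3 to 11. Of the 2 without anemia 2 and anemia 3, 1 (Ccl3) was not among the 8. The cause of these changes was not tested. Fewer cells or mice lower the UMI sums on which each fit rests.

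Some values changed sign, small and large ones (the main value is in parentheses). Ccl5 (-0.03) was at 0.29 with the stricter gate and 0.11 without cells that had a Cd3d, Cd3e, Cd3g or Trac UMI. It was at 0.55 in members at or under their mouse's median of hepatocyte and erythroid RNA, and 0.0004 at a mean of 20 UMIs. Its value was 0.15 without anemia 2 and anemia 3 and -0.35 to 0.11 with 1 mouse left out. Without anemia 2 and anemia 3 Gapdh was at -0.03, Gzma at -0.14 and the Cstdc5 difference from ILC1-like cells (5.09) at -2.83. Hba-a1 (2.40) was at -0.07 and Klrd1 at 0.03 in members at or under their mouse's median of hepatocyte and erythroid RNA. Klrd1 was at 0.08 after thinning and -0.18 to 0.09 with 1 mouse left out. In the whole family Klra7 was at -0.42 and Klrc1 at -0.002. With 1 mouse left out the differences from T cells were -5.03 to 2.43 for Ifit3 (-4.73), -0.92 to 8.07 for S100a8 (4.40) and -0.55 to 7.96 for Stfa1 (4.62).

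With the replicate number as a block, 16 genes were called, all 12 among them, and the exact sign-flip p of the shares was 0.719 and 0.188. The deviations of same-numbered mice correlated at 0.00199 to 0.106, and no control correlated best with its own number. The numbers thus gave no sign of pairing, but with so few UMIs per mouse the check could miss it. Interaction fits have the mouse as a block already.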
